A study of Mus musculus with 12 samples.

Results

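The 10 genes described here are 4 interferon receptor chains (Ifnar1, Ifnar2, Ifngr1 and Ifngr2) and 6 interferon regulatory factors (Irf1, Irf3, Irf4, Irf5, Irf7 and Irf8). They were chosen by name, as the receptor chains of type I and type II interferon and the IRF family, and all 10 were found among the 545 endogenous genes of a NanoString immune panel, an assay that hybridizes each transcript to a probe with its own fluorescent barcode and counts the barcodes. The samples were hippocampal microglia, the resident macrophages of the brain, from male Balbc mice at postnatal day 28. In the BDS group (brief daily separation, n = 6) pups had been kept apart from the dam daily (15 min each time, postnatal days 1 to 21), and the CTL group (n = 6) is labelled control, with no further detail. All 12 pups came from different litters according to the design text, and no genetic change is listed for either group. Cells were collected with a Percoll gradient and fluorescence sorting, and 2 ng of RNA went through 5 rounds of PCR before hybridization. Counts of the panel genes summed to 592159 to 1129518 per BDS sample and 846414 to 1373840 per CTL sample. Values below are normalized counts, that is, counts divided by a factor from 6 housekeeping genes. Levels of different probes are not ranked against each other, and where counts of several probes are divided or summed within a sample, only the ratios or sums of different samples are compared. In bulk samples such as these, fewer cells of a type and less RNA per cell cannot be told apart.

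Interferons are antiviral and immunoregulatory cytokines. Type I interferons bind a receptor built of IFNAR1 and IFNAR2 and type II interferon (interferon gamma) binds IFNGR1 and IFNGR2, and both receptors act through JAK kinases and STAT factors. IRFs are DNA-binding proteins that either switch on interferon genes after pathogen sensing, as IRF3 and IRF7 do, or set the identity and activation of immune cells, as IRF8 does in microglia. Several IRF genes are themselves targets of interferon signalling through STAT sites in their promoters.

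The promoter stretches that match the STAT consensus are shown first, since such sites are the textbook route from an interferon receptor to an IRF gene. RefSeq promoter windows (GRCm38.p6) were found for 10 of 10 genes, in 12 windows, and the 250 bases before each start were searched. The gamma-activated site, TTCNNNGAA, reads the same on both strands. It was present in 3 of the 12 windows, against 7.02% of all 32851 promoter windows. The interferon-stimulated response element was searched on both strands as GAAA and a second GAAA with any 2 bases between them. It was in 0 of the 12 windows and in 2.98% of all windows. No match says only that these letters are absent from the 250 bases searched. The matches lay in Irf1, Irf8 and Ifnar2, and capitals mark the matching bases.
Irf1, chr11:53769909-53769947, plus strand: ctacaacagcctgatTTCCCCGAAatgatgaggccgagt
Irf8, chr8:120736172-120736210, plus strand: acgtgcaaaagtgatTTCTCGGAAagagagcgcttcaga
Irf8, chr8:120736190-120736228, plus strand: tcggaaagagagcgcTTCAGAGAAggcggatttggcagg
Ifnar2, chr16:91372554-91372592, plus strand: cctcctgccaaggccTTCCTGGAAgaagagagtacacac
The Irf1 match started 90 bases before the transcription start of its window. The Irf8 matches started 171 and 153 bases before that of theirs, and the Ifnar2 match 214 bases before its own. Irf1 and Irf8 each had another window, with a different start, that held 0 matches. These are letter matches and no binding was measured.

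All 10 genes were above the negative-control probes in 12 of 12 samples, so all were tested. None passed the adjusted threshold of 0.05 (edgeR quasi-likelihood test with Benjamini-Hochberg adjustment over 357 genes; adjusted p = 0.38 to 0.99), nor did any of the 357 genes (percent called 0), of which 44 were at an unadjusted p under 0.05. DESeq2 with the same scaling, which gave no adjusted p for Irf3, Irf4 and Irf7, called 6 of all genes. Voom with sample quality weights called 17, and none of the genes called by either was among the 10. Of the 10, 1 (Ifnar1) was at an unadjusted p under 0.05, against 12.3% of all tested genes, so that count was near the background of the panel. Ifnar1 was under that level in 5 of 25 alternative analyses. In the direction of lower values in BDS the background was 11.5%. The BDS and CTL values overlapped for all 10 genes, where 1.12% of the tested genes had all BDS samples below every CTL sample. The log2 fold change (BDS over CTL) was below 0 for 9 of the 10, with a median of -0.085, beside 236 of 357 genes (66.1%) and a median of -0.10 over all tested genes. This direction depends on the scaling for Ifngr2, Irf1, Irf3, Irf5 and Irf8, which lay above 0 with TMM or with DESeq2's own size factors. TMM put the median of all genes at -0.0093, and with it Ifnar1 was at -0.10 and Ifnar2 at -0.066 (edgeR, adjusted p = 0.61 and 0.79). Only 4 of the 10, Irf7, Irf4, Ifnar1 and Ifnar2, lay below the panel median.

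**Figure D1:**
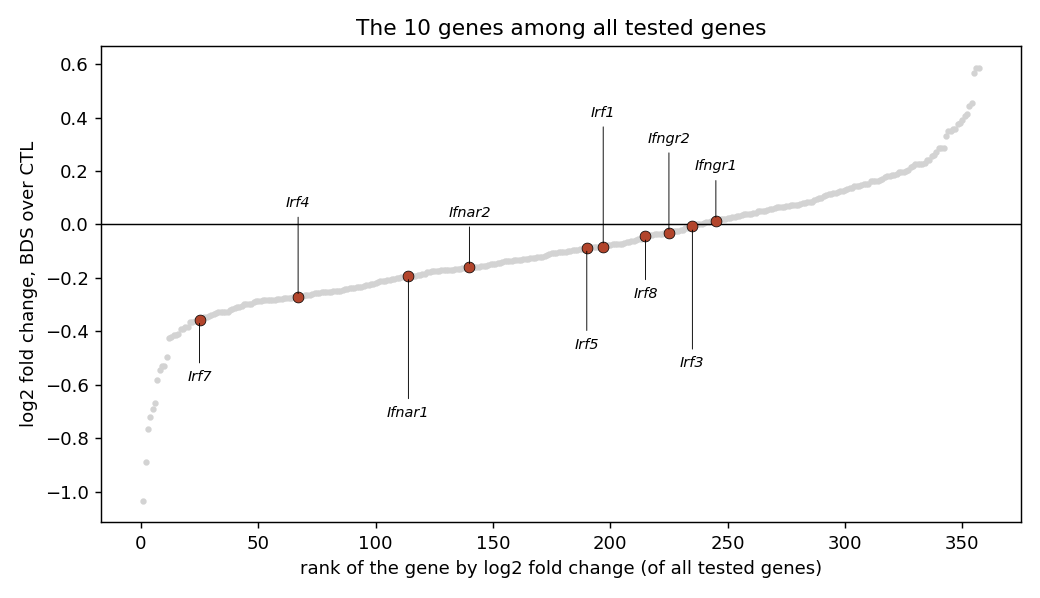
The log2 fold change of BDS over CTL (vertical axis) is plotted against the rank of the gene by that value (horizontal axis) for all 357 tested genes in grey, with the 10 interferon receptor and IRF genes as labelled red points. The red points run from rank 25 (Irf7) and rank 67 (Irf4), toward the low end of the curve, to rank 245 (Ifngr1).

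The lowest housekeeping factors were those of BDS 21, BDS 25 and BDS 55 (0.61 to 0.85, against 0.87 to 1.47 in the other 9 samples). By the factor alone BDS 55 (0.85) lay close to CTL 5 (0.87). Ratios of Rpl19 to Polr2a counts were the highest in BDS 21, BDS 25 and BDS 55 (0.47 to 0.79, against 0.11 to 0.27). Results that move with these 3 samples are given with and without them, and the part of RNA amount or quality in the results was not tested. As markers of the sorted cells, 5 of 10 microglial markers were on the panel and all 5 were above background in all samples. Their summed level was 141375 to 196173 normalized counts in BDS and 144637 to 159750 in CTL. Most of this sum was Csf1r, with means of 97734 in BDS and 84924 in CTL. The markers differed in direction: Csf1r, Tyrobp and Trem2 had log2 fold changes of 0.20, 0.20 and 0.15. Cx3cr1 and Itgam were at -0.11 and -0.13 (edgeR, adjusted p = 0.43 to 0.53 over the 5). Other cell types are described after the interferon genes.

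Among the receptor chains for type I interferon, Ifnar1, the chain on which the kinase TYK2 docks, had a lowest value of 2527, a median of 3158 and a highest value of 3567 normalized counts in BDS samples. In CTL samples the lowest, median and highest values were 3410, 3562 and 3739. The CTL samples lay close together, while 4 of 6 BDS samples were below the lowest CTL sample and the groups overlapped. Ifnar1 averaged 3112 ± 413 in BDS and 3557 ± 131 in CTL (SD, n = 6 each), a log2 fold change of -0.19 ± 0.09 (SE; edgeR, adjusted p = 0.38). The 95% interval of the fold ran from 0.77 to 1.00, and an exact two-sided permutation test on the same values gave p = 0.030 (adjusted p = 0.30). By that test 1 of the 10 genes, Ifnar1, was under 0.05, beside 13.4% of all tested genes. The coefficient of variation of Ifnar1 was 13.3% in BDS against 3.67% in CTL, where counting error alone gives 1.85% in BDS and 1.56% in CTL.

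The low Ifnar1 values were those of BDS 21, BDS 25 and BDS 55, the samples with the lowest housekeeping factors. Ifnar1 was at 2942, 2809 and 2527 in BDS 21, BDS 25 and BDS 55, and at 3567, 3449 and 3375 in BDS 7, BDS 35 and BDS 43. BDS 7 and BDS 35 lay within the CTL range and BDS 43 just under it. With those low samples left out, Ifnar1 had a log2 fold change of -0.038 (edgeR, adjusted p = 0.96), as in the plot of the BDS samples in both sets.

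Ifnar2, the chain that binds type I interferon with high affinity and docks JAK1, had a lowest value of 4133, a median of 5145 and a highest value of 5902 normalized counts in BDS. In CTL samples these were 5104, 5724 and 6231. BDS 55 was the lowest sample, and 2 of 6 BDS samples were below every CTL sample. The log2 fold change of Ifnar2 was -0.16 ± 0.09 (SE; edgeR, adjusted p = 0.43), with means of 5139 ± 591 in BDS and 5743 ± 423 in CTL (SD, n = 6 each). The interval of the fold, 0.79 to 1.02, includes no change. Without the 3 samples of low housekeeping counts the log2 fold change was -0.070 (edgeR, adjusted p = 0.96), and without BDS 35 it was -0.20, at an unadjusted p of 0.036 (edgeR, adjusted p = 0.29).

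The ratio of Ifnar1 to Ifnar2 counts in a sample does not depend on the scaling. It was 0.607 ± 0.058 in BDS and 0.624 ± 0.068 in CTL (SD, n = 6 each), with a range of 0.548 to 0.713 in BDS and 0.547 to 0.733 in CTL. The difference of the means was smaller than the spread between samples in either group. These count ratios were chosen after seeing the data and carry no test.

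**Figure D2:**
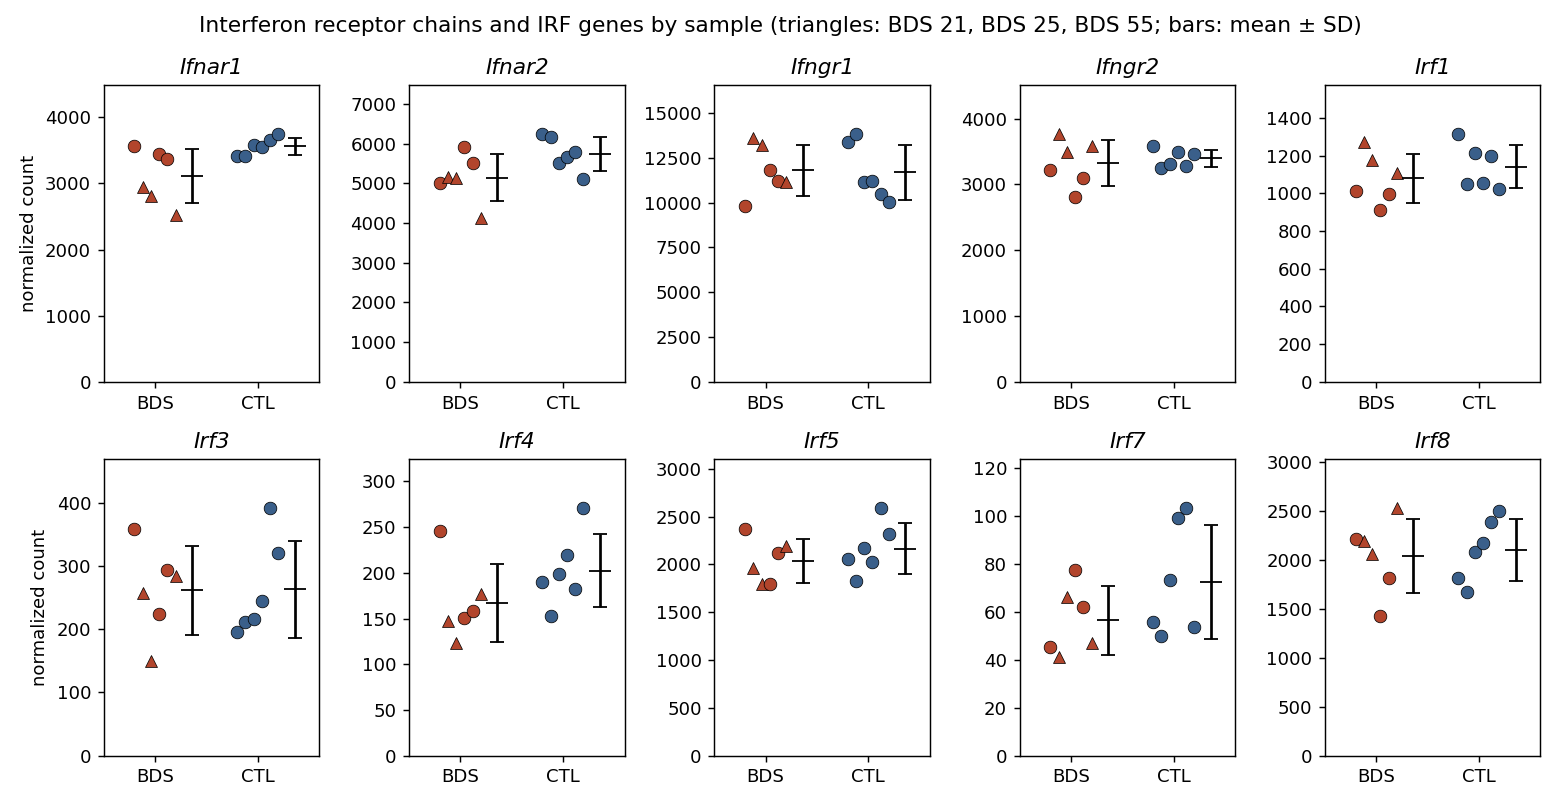
Normalized counts (vertical axes, each starting at 0) are shown for the 10 genes in BDS samples (red, left) and CTL samples (blue, right), with BDS 21, BDS 25 and BDS 55 as triangles and the mean ± SD as a bar beside each group of 6 samples. Red and blue points overlap in every panel, and the Ifnar1 triangles (2527 to 2942) lie below all other Ifnar1 points.

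The chains for type II interferon had values of about the same mean in both groups. Ifngr1, the ligand-binding chain, had a lowest value of 9791, a median of 11489 and a highest value of 13603 normalized counts in BDS, and 10037, 11169 and 13794 in CTL. Its log2 fold change was 0.013 ± 0.10 (SE; edgeR, adjusted p = 0.94), and the interval of the fold was 0.87 to 1.17. The high samples were BDS 21 (13603), BDS 25 (13228), CTL 5 (13396) and CTL 9 (13794), so both groups held high values. With BDS 21, BDS 25 and BDS 55 left out, Ifngr1 was below 0, at -0.096 on the log2 scale (edgeR, adjusted p = 0.96).

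Ifngr2, the chain that docks JAK2, had a lowest value of 2804, a median of 3350 and a highest value of 3760 normalized counts in BDS, and 3250, 3388 and 3580 in CTL. Both the lowest and the highest samples were BDS samples: 3 of 6 BDS samples were below the lowest CTL sample and 2 were above the highest. The log2 fold change was -0.031 ± 0.08 (SE; edgeR, adjusted p = 0.83), with an interval of the fold of 0.87 to 1.10. The spread was 10.6% of the mean in BDS and 3.90% in CTL. All of BDS 21, BDS 25 and BDS 55 (3487 to 3760) lay above BDS 7, BDS 35 and BDS 43 (2804 to 3214). With BDS 21, BDS 25 and BDS 55 left out, Ifngr2 was at -0.16 on the log2 scale, at an unadjusted p of 0.039 (edgeR, adjusted p = 0.77). The ratio of Ifngr2 to Ifngr1 counts in a sample was 0.284 ± 0.035 in BDS and 0.295 ± 0.038 in CTL (SD, n = 6 each).

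Set across the receptors, Ifnar1 and Ifngr1 counts gave a ratio of 0.269 ± 0.061 in BDS and 0.310 ± 0.050 in CTL (SD, n = 6 each). The ratio was 0.219 on average in BDS 21, BDS 25 and BDS 55 and 0.320 in BDS 7, BDS 35 and BDS 43, and the first 3 samples lay below the lowest CTL sample (0.248). Ifnar2 over Ifngr2 averaged 1.33 in BDS 21, BDS 25 and BDS 55 and 1.81 in BDS 7, BDS 35 and BDS 43, against 1.69 in CTL.

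**Figure D3:**
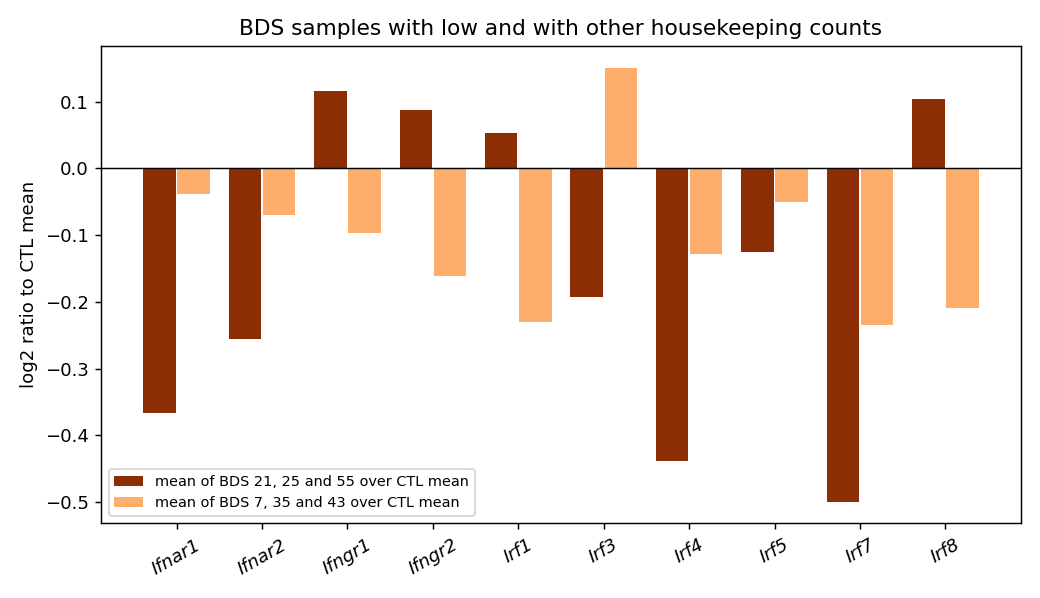
Bars show the log2 ratio to the CTL mean (vertical axis) for each of the 10 genes, with the mean of BDS 21, BDS 25 and BDS 55 in dark brown and the mean of BDS 7, BDS 35 and BDS 43 in orange; there are no error bars, since each bar is a mean of 3 samples. Ifnar1 is at -0.37 and -0.038, whereas Ifngr1, Ifngr2, Irf1 and Irf8 lie above 0 in the first set and below 0 in the second.

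Among the IRF genes, Irf3 and Irf7 encode the factors that switch on type I interferon genes, Irf3 being constitutive and Irf7 inducible by interferon. Irf3 had a lowest value of 150, a median of 271 and a highest value of 359 normalized counts in BDS, and 195, 230 and 391 in CTL. The groups overlapped over nearly their whole range, with means of 261 ± 71 in BDS and 263 ± 77 in CTL (SD, n = 6 each). Irf3 had a log2 fold change of -0.0075 ± 0.21 (SE; edgeR, adjusted p = 0.99), and the interval of the fold, 0.73 to 1.36, leaves room for a moderate change in either direction. Irf3 was high in BDS 7 (359), CTL 44 (391) and CTL 54 (320), so its spread lay within the groups. Its sign changed in 10 of 25 alternative analyses, among them the one without BDS 21, BDS 25 and BDS 55 (0.15 on the log2 scale).

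Irf7 had 25 to 136 raw counts per sample against a background limit of 15.3 to 21.8. It had a lowest value of 41.1, a median of 54.6 and a highest value of 77.5 normalized counts in BDS, and 49.9, 64.8 and 103 in CTL. CTL 27 and CTL 44 were the highest samples, and 3 of 6 BDS samples were below the lowest CTL sample. Irf7 had a log2 fold change of -0.36 ± 0.23 (SE; edgeR, adjusted p = 0.45), the largest in size of the 10, and the interval of the fold was 0.56 to 1.09. Counting error makes up 13.8% of the mean in BDS and 10.9% in CTL, beside observed coefficients of variation of 25.3% in BDS and 32.7% in CTL. With CTL 44 left out, Irf7 was at -0.23 on the log2 scale. It was at -0.24 without BDS 21, BDS 25 and BDS 55 (edgeR, adjusted p = 0.96).

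Irf8 and Irf5 are the lineage and inflammatory factors of myeloid cells. Irf8, needed for microglial development, had a lowest value of 1424, a median of 2123 and a highest value of 2525 normalized counts in BDS, and 1665, 2124 and 2492 in CTL. The medians differed by about 1 count and the range was wider in BDS, with BDS 35 lowest and BDS 55 highest. Irf8 had a log2 fold change of -0.045 ± 0.14 (SE; edgeR, adjusted p = 0.86), with an interval of the fold of 0.79 to 1.19. That value moved to -0.21 with BDS 21, BDS 25 and BDS 55 left out (edgeR, adjusted p = 0.96).

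Irf5, a factor downstream of Toll-like receptors that drives inflammatory cytokine genes, had a lowest value of 1792, a median of 2042 and a highest value of 2366 normalized counts in BDS, and 1828, 2115 and 2589 in CTL. Of the 6 BDS samples, 2 were below the lowest CTL sample, and the groups overlapped. Its log2 fold change was -0.086 ± 0.10 (SE; edgeR, adjusted p = 0.68), and the interval of the fold was 0.81 to 1.09. The ratio of Irf8 to Irf5 counts was 0.999 ± 0.157 in BDS and 0.969 ± 0.084 in CTL (SD, n = 6 each). It was 1.14 on average in BDS 21, BDS 25 and BDS 55 and 0.862 in BDS 7, BDS 35 and BDS 43, on either side of the CTL mean.

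Irf1, an early interferon-gamma target that activates antigen presentation genes, had a lowest value of 911, a median of 1060 and a highest value of 1270 normalized counts in BDS, and 1022, 1128 and 1312 in CTL. Of the BDS samples, 3 were below the lowest CTL sample, and the groups overlapped. The log2 fold change of Irf1 was -0.083 ± 0.10 (SE; edgeR, adjusted p = 0.68), with an interval of the fold of 0.81 to 1.10. As for Ifngr2, the 3 BDS samples of low housekeeping counts (1109 to 1270) lay above the other 3 (911 to 1012). Without them the log2 fold change was -0.23, at an unadjusted p of 0.045 (edgeR, adjusted p = 0.81).

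Irf4, a factor of lymphocytes and dendritic cells that also acts in alternatively activated macrophages, had a lowest value of 123, a median of 155 and a highest value of 246 normalized counts in BDS, and 153, 194 and 271 in CTL. In BDS, 5 of 6 samples were below the CTL mean, and the exception was BDS 7, at 246. Irf4 had a log2 fold change of -0.27 ± 0.17 (SE; edgeR, adjusted p = 0.45), with an interval of the fold of 0.64 to 1.07. Leaving out BDS 7 gave -0.42, at an unadjusted p of 0.016 (edgeR, adjusted p = 0.11), and leaving out CTL 54 gave -0.17, at an unadjusted p of 0.34 (edgeR, adjusted p = 0.69). Leaving out BDS 21, BDS 25 and BDS 55 gave -0.13 (adjusted p = 0.96).

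**Figure D4:**
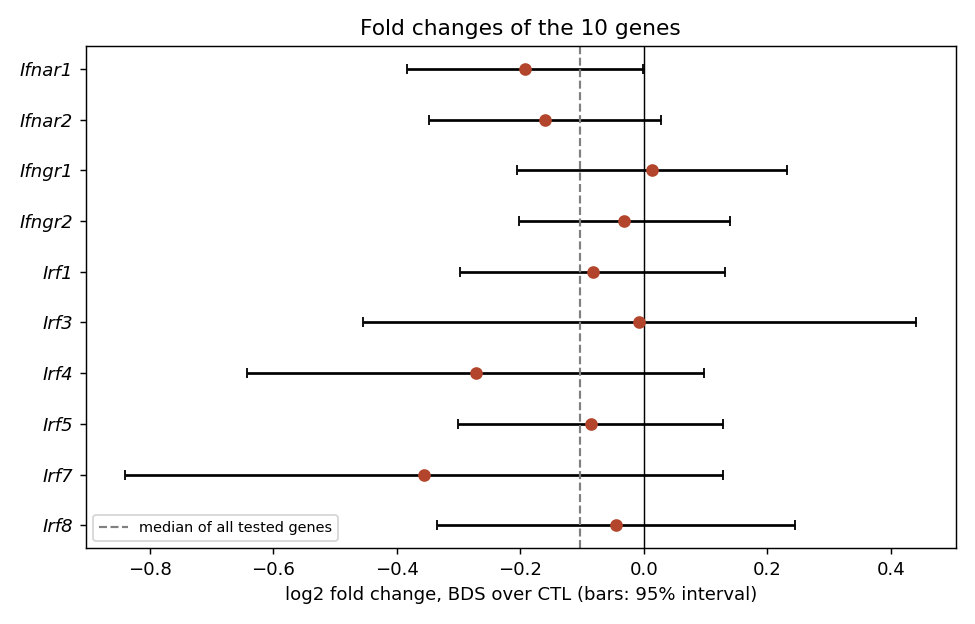
Points give the log2 fold change of BDS over CTL (horizontal axis) for the 10 genes, bars its 95% interval from edgeR with 6 samples a group, and the dashed line the median of all tested genes (-0.10). The intervals of 9 of the 10 genes include 0, that of Ifnar1 ends just below it, and all 10 include the panel median.

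Within the BDS group, the 3 samples of low housekeeping counts lay wholly above the other 3 for Ifngr2 and Irf1 and wholly below them for Ifnar1, that is, for 3 of 10 genes, beside 33.1% of all tested genes. For Ifngr1 and Irf8 the means of the 2 sets differed by 0.21 and 0.31 on the log2 scale with overlapping values. Averaged over the 10 genes, the log2 difference from the CTL mean ran from -0.20 (BDS 25) to -0.027 (BDS 7) in BDS samples and from -0.16 (CTL 9) to 0.15 (CTL 44) in CTL samples. The median over the whole panel gave -0.12 for BDS 25, 0.00042 for BDS 7, -0.13 for CTL 9 and 0.11 for CTL 44.

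**Figure D5:**
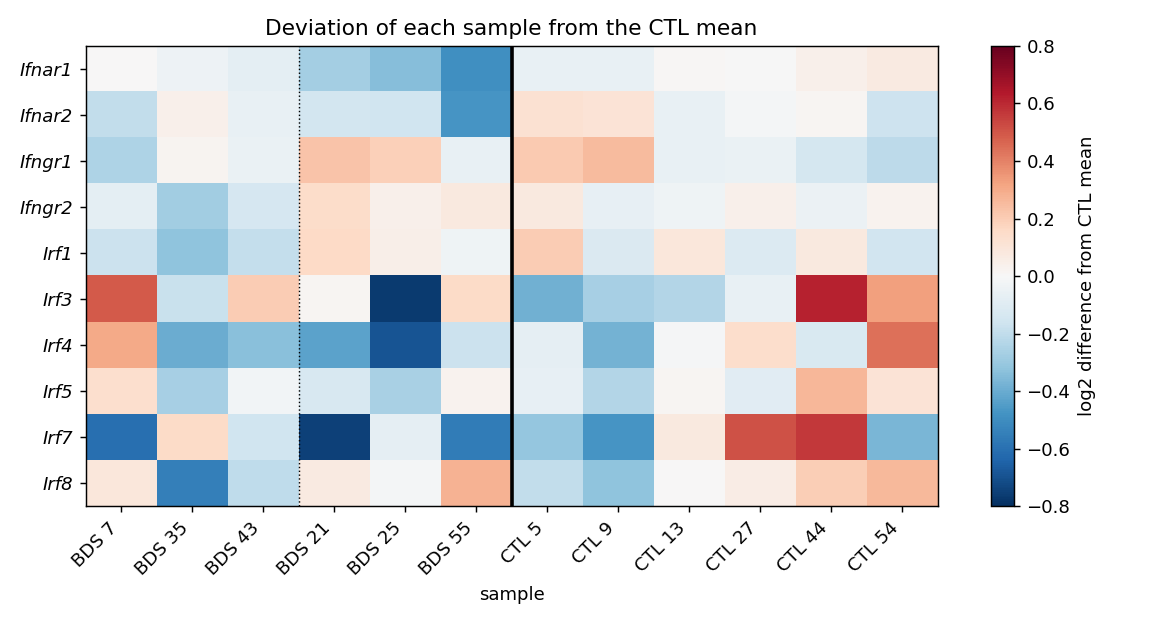
Colour gives the log2 difference of each sample (horizontal axis) from the CTL mean for each of the 10 genes (vertical axis), with BDS samples left of the solid line and BDS 21, BDS 25 and BDS 55 right of the dotted line. Ifnar1 and Ifnar2 are lowest in BDS 55 (-0.49 and -0.47), while Irf3 and Irf7 vary in both groups.

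Among the 10 genes the coefficient of variation was lowest for Ifnar1 and Ifngr2 in CTL (3.67% and 3.90%) and highest for Irf7 in CTL (32.7%) and Irf3 in CTL (29.2%). The median over the 10 was 12.7% in BDS and 12.8% in CTL, against 19.4% in BDS and 14.8% in CTL over all tested genes. The panel was not matched to the 10 genes for count level. It includes genes near background such as Ifna2 (10 to 31 raw counts, above background in 5 of 12 samples). For each gene, the other panel gene nearest in its pattern over the 12 samples was found by the root mean square difference of log2 values after each gene's mean was subtracted. The nearest were Cd81 for Ifngr1 (0.035), Itgam for Ifnar2 (0.060), Ccr6 for Ifnar1 (0.072), Tnfrsf1b for Irf8 (0.072), Lcp2 for Irf5 (0.080), Ncf4 for Ifngr2 (0.081) and Stat5b for Irf1 (0.093). Larger distances were those of Cd86 for Irf4 (0.12), Traf5 for Irf3 (0.23) and Il1a for Irf7 (0.27). These distances depend on how much each gene itself varied. The root mean square of a gene's own values about its mean was 0.31 for Irf4, 0.38 for Irf3 and 0.41 for Irf7. In the others it ran from 0.11 (Ifngr2) to 0.24 (Irf8). Beside its own spread, Ifngr2 was therefore less close to Ncf4 than Irf4 was to Cd86.

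Of the interferon ligands, Ifna1, Ifnb1 and Ifng were above background in 0 of 12 samples and Ifna2 in 5 of 12, with Ifna2 at 20.3 ± 5.9 normalized counts in BDS and 17.7 ± 4.9 in CTL (SD, n = 6 each). The ligand probes were therefore at or near background in both groups.

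Of the 6 tested genes of receptor signalling (JAKs, STATs and the inhibitor Socs1), 5 had log2 fold changes below 0, beside 66.1% of all tested genes. At an unadjusted p under 0.05 (edgeR) was 1 of the 6, lower in BDS and not reported here, beside 12.3% of all tested genes. The list median was -0.11, against -0.10 for the panel. Stat2, a transducer of the type I receptor, and the kinase Tyk2 had log2 fold changes of -0.17 and -0.11 (edgeR, adjusted p = 0.61 and 0.64).

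Of 7 tested adaptors and kinases that activate IRFs, 4 were below 0 and 1 was at an unadjusted p under 0.05, with a median of -0.085. Over all tested genes these shares were 66.1% and 12.3%, with a median of -0.10. Traf6, a ubiquitin ligase of Toll-like receptor signalling, was at 1245 ± 218 in BDS and 1498 ± 119 in CTL (SD, n = 6 each; log2 fold change -0.27, edgeR, adjusted p = 0.38). Irak1, a kinase of the same pathway, and Ikbke, a kinase that phosphorylates IRF3 and IRF7, had log2 fold changes of -0.23 and -0.72 (edgeR, adjusted p = 0.41 and 0.44). Ikbke varied widely among the controls, at 56.3 ± 22.5 in BDS and 92.8 ± 84.1 in CTL (SD, n = 6 each). It had 16 to 274 raw counts and was above background in 11 of 12 samples.

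Of 12 tested interferon-induced genes, 9 were below 0 and 2 were at an unadjusted p under 0.05, with a median of -0.13. The panel shares were 66.1% and 12.3%, with a median of -0.10, so both counts were near the background of the panel. The 2 genes under 0.05 were Ifit2, an antiviral effector, and Ddx58, the RNA sensor RIG-I. Ifit2 was at 48.6 ± 10.7 in BDS and 70.8 ± 22.9 in CTL, and Ddx58 at 939 ± 167 in BDS and 1139 ± 108 in CTL (SD, n = 6 each). Their log2 fold changes were -0.53 and -0.28 (edgeR, adjusted p = 0.36 and 0.38). Ifih1, the RNA sensor MDA5, was at -0.28 (edgeR, adjusted p = 0.38). Of the IRF partners, Batf, Batf3 and Ikzf1 had log2 fold changes of -0.15, 0.057 and 0.00018. None of these lists held a gene past the adjusted threshold.

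Other cells that the sort could hold also carry interferon receptors and IRFs, and their markers were read in the same samples. Of the T cell markers on the panel 2 of 7 were tested and 4 were above background in 0 samples, Cd3d and Cd3e among them. The tested ones, Cd8b1 and Cd4, were each above background in 6 of 12 samples. T cell marker sums were 63.6 to 113 normalized counts in BDS and 58.5 to 88.0 in CTL. Of the B cell markers 2 of 6 were tested, Pax5 and Cr2 were above background in 0 samples, and the sums were 164 to 355 in BDS and 181 to 282 in CTL. Cd79b was above background in 12 of 12 samples, at 188 ± 58 in BDS and 161 ± 44 in CTL (SD, n = 6 each). Cd79a was above background in 6 of 12. NK cell markers summed to 124 to 179 in BDS and 130 to 184 in CTL (2 of 3 tested), and neutrophil markers to 30.9 to 67.8 in BDS and 22.9 to 137 in CTL (1 of 4 tested).

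Monocyte and border macrophage markers summed to 253 to 450 in BDS and 290 to 497 in CTL (1 of 3 tested). The tested one, the monocyte receptor Ccr2, was at 292 ± 73 in BDS and 377 ± 76 in CTL (SD, n = 6 each), at a log2 fold change of -0.36 and an unadjusted p of 0.049 (edgeR, adjusted p = 0.38), while Cd163 and Marco were above background in 0 samples. Endothelial markers summed to 915 to 1287 in BDS and 943 to 1334 in CTL (2 of 2 tested), with Cdh5 at a log2 fold change of -0.32 and an unadjusted p of 0.040 (edgeR, adjusted p = 0.38). Of the plasmacytoid dendritic cell markers, 3 of 3 on the panel were tested, and Bst2 and Tcf4 are also expressed by other cells. Their sums were 2730 to 5109 in BDS and 3746 to 5056 in CTL, and all 3 log2 fold changes were below 0 (Tcf4 -0.33, edgeR, adjusted p = 0.40). The mast cell marker Fcer1a was above background in 0 samples. The list for astrocytes, neurons and oligodendrocytes held 2 tested genes, with sums of 114 to 184 in BDS and 123 to 243 in CTL. The part of these cells in the values of Ifnar1, Irf4 and Irf7 was not tested.

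The authors' deposited table gives folds of BDS over control of 0.89 for Ifnar1, 0.91 for Ifnar2, 0.79 for Irf7 and 0.84 for Irf4, and of 0.95 to 1.02 for the other 6 genes. The unadjusted p in the authors' deposited table was 0.0564 for Ifnar1, the smallest of the 10, and 0.1272 for Ifnar2. In the authors' deposited table all 10 genes were above background in 100 percent of the samples.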

How the data were processed

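Barcode counts per probe were deposited without normalization (573 probes: 545 endogenous, 14 housekeeping, 8 negative and 6 positive controls). A second deposited table holds the authors' normalized values, rounded and treated here as scores, with a fold (BDS over control, a ratio), an unadjusted p-value and, as a percent, how many samples exceeded background, per the file headers. The counting software is not stated in the labels. Each sample's scaling factor was the geometric mean of its Tbp, Sdha, Polr1b, Oaz1, Gapdh and Alas1 counts, relative to that of all samples. Genes were tested where at least 40% of samples (5 of 12) were more than 2 SD over the mean negative control (357 genes). BDS and CTL were compared with edgeR 4.0.16 (quasi-likelihood, R 4.3.3, no covariates), Benjamini-Hochberg adjustment over all 357 genes and a threshold of 0.05. Permutation tests enumerated 924 regroupings (smallest p 0.00216). Alternatives used other scalings, DESeq2 1.42.0, limma 3.58.1, other filters and samples left out. The fit was tested on simulated counts. The groups shared no replicate number, and no 2 samples held identical counts. The genes, lists and alternatives were chosen with earlier results of these data known. Named genes were the 10 themselves, up to 3 per list by smallest p, the nearest gene in pattern and the markers. Promoter sequences are RefSeq's, GRCm38.p6; the files name no build. Count ratios between genes were chosen after seeing the data, and the split of BDS samples by housekeeping counts came from earlier results. Counting error leaves out PCR error. Some genes of these lists are not reported here.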

Additional observations from a re-analysis of the deposited data

How the results depend on the processing

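None of the 10 genes passed the adjusted threshold under any of the 25 alternatives run (smallest adjusted p 0.088, Ifnar1 with voom quality weights). DESeq2 on the housekeeping factors gave no adjusted p for Irf3, Irf4 and Irf7. Ifnar1, Ifnar2, Irf4 and Irf7 stayed below 0 in all 25. Sign changes among the other 6 were 5 of 25 for Ifngr1, 3 for Ifngr2, 2 for Irf1, 10 for Irf3, 2 for Irf5 and 4 for Irf8. With TMM, which centres the panel (median of all genes -0.0093, against -0.10), Ifngr2, Irf1, Irf3, Irf5 and Irf8 were at 0.063, 0.012, 0.089, 0.0098 and 0.054 on the log2 scale, and with DESeq2's own size factors (panel median -0.014) at 0.053, 0.0025, 0.086, 0.0044 and 0.045. Ifnar1, Ifnar2, Irf4 and Irf7 were at -0.10, -0.066, -0.18 and -0.24 with TMM and at -0.11, -0.074, -0.19 and -0.25 with DESeq2's own size factors. Irf3 was at 0.0097 with the authors' 5 housekeeping genes, 0.0093 with all 14 and 0.0024 with the deposited values. Without BDS 21, BDS 25 and BDS 55, Ifngr1 was at -0.096 and Irf3 at 0.15.

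Genes past the adjusted threshold numbered 6 with DESeq2 on the housekeeping factors, 17 with voom quality weights and 0 to 4 with 1 sample left out. Genes at an unadjusted p under 0.05 numbered 27 with DESeq2's own size factors, 95 with voom weights, 20 without those 3 samples and 26 to 96 with 1 sample left out. Of the 10 genes, 0 were at an unadjusted p under 0.05 with other scalings, DESeq2, limma, background subtraction or no filter, 2 with voom weights, 2 without those 3 samples and 0 to 2 with 1 sample left out (Ifnar1 and Irf4 without BDS 7, Ifnar1 and Ifnar2 without BDS 35). With 1 sample left out, the median of the 10 was -0.13 to -0.045 and of the panel -0.13 to -0.062, Ifnar1 -0.24 to -0.14, Ifnar2 -0.20 to -0.10, Ifngr1 -0.032 to 0.067, Ifngr2 -0.070 to 0.013, Irf1 -0.13 to -0.038, Irf3 -0.12 to 0.14, Irf4 -0.42 to -0.17, Irf5 -0.13 to -0.029, Irf7 -0.47 to -0.23 and Irf8 -0.12 to 0.040. The causes were not tested. No paired analysis was possible because the groups share no replicate number.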
